A study of Danio rerio with 6 samples.

Results

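The lysosome genes and the proton pump of the zebrafish embryo were taken from a table of 32057 genes. A gene was a member where the KEGG annotation in the table gave it the pathway Lysosome, or where its symbol began with atp6v or atp6ap, the names of the subunits and accessory proteins of the vacuolar proton pump (V-ATPase). This gave 157 genes, of which 141 came by the KEGG entry, 27 by symbol, and 11 by both. They were divided by role into 71 hydrolases with their activators, 24 membrane proteins, 29 V-ATPase genes and 33 genes of trafficking to the lysosome, and tcirg1a and tcirg1b, which encode forms of V-ATPase subunit a, were placed with the pump. The rule used annotation and symbols, not measured values.

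RNA was sequenced from EGFP-positive cells sorted from Tg(fli1a:EGFP) embryos, 3 samples from embryos injected with nlrc3 MO and 3 from embryos injected with control MO. A morpholino (MO) is an antisense oligomer injected at the one-cell stage, here to modify the splicing of nlrc3, which encodes a sensor of the NLR family of innate immunity. The study asks what loss of nlrc3 does to the endothelium from which blood stem cells emerge, and the labels place the samples at 28 h post fertilisation. All 6 samples share the transgene, whose fli1a promoter drives EGFP in endothelium and also in other cells, among them neural crest of the pharyngeal arches and early blood cells, so the sorted cells were a mixture. The nlrc3 MO was injected at a higher concentration than the control MO, which leaves dose and target as differences that cannot be told apart. The study calls the samples of a group biological replicates. Separate clutches and the number of embryos pooled are not given in the sources used here, so the p-values measure the spread between these samples.

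Lysosomes are acid compartments in which proteins, lipids, glycans and nucleic acids are broken down. Their lumen is acidified by the V-ATPase, a rotary machine with a cytosolic V1 sector that hydrolyses ATP and a membrane V0 sector that carries protons. Soluble hydrolases receive a mannose 6-phosphate tag in the Golgi and are carried to late endosomes in clathrin-coated vesicles with the adaptor AP-1. Membrane proteins of the lysosome form its limiting membrane and export the products of digestion and metal ions. In blood and vessels lysosomes are best known from macrophages, which digest what they engulf, and from red cell precursors, which take up iron through acidified endosomes.

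Values are FPKM, read counts scaled by transcript length and by the mapped reads of the library, which allows levels of different genes to be compared. A fold change is a difference of means of log2(FPKM + 0.1), nlrc3 MO minus control MO, and its adjusted p is that of limma with Benjamini-Hochberg adjustment over all 15155 genes tested. Rose and fell are written of genes with an adjusted p under 0.05, and called of those that also changed by more than 2-fold. The targeted gene, nlrc3 (ENSDARG00000103146), had 0.26, 0.15 and 0.17 FPKM in nlrc3 MO samples, against 0.82, 0.70 and 1.09 FPKM in control MO samples, with a log2 fold change of -1.72 (SE 0.30, adjusted p = 0.00175). The groups did not overlap for nlrc3, although all 6 values were low.

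The libraries differed in ways that touch every member. Globin genes made up 34.5 to 34.8% of all FPKM in nlrc3 MO samples and 15.6 to 15.7% in control MO samples, and a whole library added up to between 678620 and 687387 FPKM in nlrc3 MO samples and between 524846 and 525567 FPKM in control MO samples. The median log2 fold change of all genes tested was -0.22, and it was -0.60 when each library was scaled to the same total (TPM) and -0.02 when libraries were scaled by the median of their ratios. Most tested markers of blood cells were higher in nlrc3 MO samples. There the 10 macrophage markers summed to 71.0 to 77.2 FPKM, against 22.1 to 23.8 FPKM in control MO samples. Most of that sum was mfap4 (58.2 and 17.2 FPKM on average). Called higher were 4 of 5 tested macrophage markers, beside 4.89% of all genes tested. Of these marco passed the filter through nlrc3 MO samples alone. The macrophage markers not tested, cd74a and cd74b among them, did not pass the filter. The 7 neutrophil markers summed to 1007 to 1013 FPKM in nlrc3 MO samples and 479 to 492 FPKM in control MO samples. Most of this was lyz (796 and 386 FPKM on average). Of the neutrophil markers 6 of 7 were called higher, while mmp9 fell (log2 fold change -0.95), and 7 of 7 erythroid markers were called higher. The 8 endothelial markers summed to 329 to 339 FPKM in nlrc3 MO samples and 553 to 561 FPKM in control MO samples. Called lower were 2 of 8, a share near the 20.4% of all genes tested, and these 2 made up most of that difference. Of these, fli1a averaged 90.6 FPKM in nlrc3 MO samples and 204.6 FPKM in control MO samples, and egfl7 48.4 and 126.7 FPKM. By less than 2-fold, kdrl (log2 fold change -0.39), cdh5 (-0.37) and pecam1 (-0.61) fell and etv2 rose (0.18). The test was not passed by tie1 (-0.08) and erg (0.03). All 6 markers of pharyngeal arch neural crest were called lower, and summed to 6.90 to 8.04 FPKM in nlrc3 MO samples and 535 to 547 FPKM in control MO samples. In such bulk samples fewer cells of a type and less RNA per cell cannot be told apart, and the part of these shifts in the results on the lysosome was not tested.

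Lysosome genes were more often higher than lower in nlrc3 MO samples, while most other genes that changed were lower. Of the 157 members, 134 passed the filter on low values (at least 0.5 FPKM in 3 of 6 samples), 23 did not, and 9 of these 23 were listed at 0 in all samples. Among the 134 tested, 80 rose (59.7%; 20.2% of all genes tested), 26 fell (19.4%; 42.9% of all genes tested) and 28 did not pass the test. Most of these changes were modest, and 13 members were called higher (9.70%; 4.89% of all genes tested) and 10 called lower (7.46%; 20.4% of all genes tested). The median log2 fold change of the members was 0.39. The split of the calls moved with the scaling: it was 2 higher and 18 lower under TPM, and 31 higher and 7 lower under median-of-ratios scaling. Without the 2-fold limit TPM gave 53 members that rose and 43 that fell, and median-of-ratios scaling gave 92 and 18. These scalings moved all genes nearly alike. Under TPM the median log2 fold change was 0.03 for members and -0.60 for all genes tested, and under median-of-ratios scaling 0.59 and -0.02. Shares of all genes that were called, rose or fell under these scalings were not counted, here or below.

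**Figure D1:**
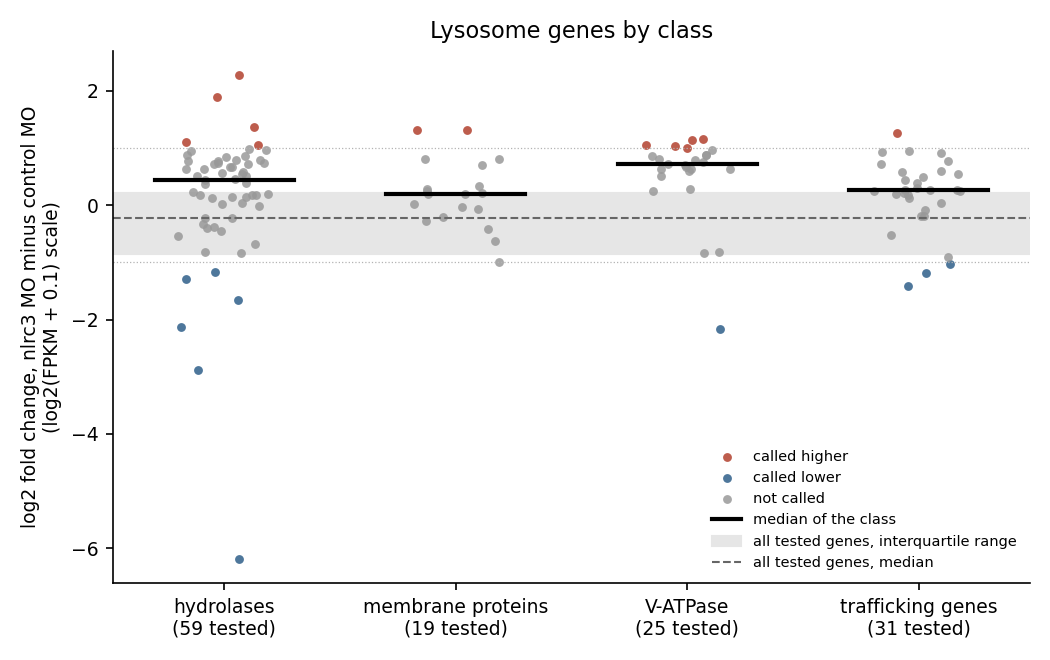
Log2 fold change (nlrc3 MO minus control MO, on the log2(FPKM + 0.1) scale) of each tested lysosome gene by class, with the class median as a black bar and the median and interquartile range of all tested genes as a dashed line and grey band. The class medians, 0.44, 0.20, 0.72 and 0.26 in the order drawn, all lie above the median of all genes, -0.22, and the lowest point is ctslb, which was listed at 0 in all nlrc3 MO samples, so that its position depends on the added 0.1.

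Members rose more often than other genes of like level, at each level. Of 38 tested members with a mean above 20 FPKM, 31 rose and 3 fell, whereas 31.9% of all genes at that level rose. Between 5 and 20 FPKM, 36 of 54 members rose and 8 fell, against 24.0% of all genes that rose. Under 5 FPKM, 13 of 42 rose (31.0%) and 15 fell (35.7%), against 13.4% and 40.7% of all genes at that level, and the median log2 fold change was 0.08 for members and -0.38 for all genes. The 157 members together summed to 3647, 3599 and 3681 FPKM in nlrc3 MO samples and 2599, 2596 and 2582 FPKM in control MO samples, a ratio of means of 1.41.

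The V-ATPase moved most as a class. Its 29 genes summed to 1001, 1010 and 1026 FPKM in nlrc3 MO samples and to 587, 574 and 582 FPKM in control MO samples, a ratio of means of 1.74. Of the 25 V-ATPase genes tested, 22 rose (88%), 3 fell (12%) and none failed the test, beside 20.2% and 42.9% of all genes tested. The groups did not overlap in any of the 25 (22.8% of all genes tested lay wholly higher and 46.1% wholly lower in nlrc3 MO samples). For atp6v0a2a, which passed the filter through control MO samples alone, this follows in part from the filter. Only 5 of the 25 were called higher (20%; 4.89% of all genes tested) and 1, atp6v0a2a, called lower (4%; 20.4% of all genes tested). By contrast 19 of the 25 had a ratio of mean FPKM above 1.5 (12.7% of all genes tested), 14 of them under 2. The class median log2 fold change was 0.72, and it was 0.34 under TPM and 0.93 under median-of-ratios scaling. Under TPM 18 of the 25 rose and 3 fell, with atp6v0a2b (log2 fold change -0.12) and atp6ap1b (-0.09) turning to the negative side, and 0 were called higher. Calls under median-of-ratios scaling numbered 11 higher and 1 lower.

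Genes of the V1 sector, which binds and hydrolyses ATP, rose more than those of the V0 sector. The V1 genes summed to 536, 537 and 553 FPKM in nlrc3 MO samples and 282, 275 and 281 FPKM in control MO samples, a ratio of 1.94. All 5 V-ATPase genes called higher belong to V1, and 11 of 12 tested V1 genes rose (20.2% of all genes tested). Subunit A, the catalytic ATPase subunit, is encoded by atp6v1aa and atp6v1ab. The gene atp6v1aa had 55.2, 53.1 and 54.9 FPKM in nlrc3 MO samples, against 28.4, 29.9 and 29.8 FPKM in control MO samples (log2 fold change 0.89, SE 0.04, adjusted p = 8.5e-07). Its paralog atp6v1ab had 28.7, 26.3 and 27.4 FPKM in nlrc3 MO samples, against 13.5, 12.8 and 13.1 FPKM in control MO samples (1.06, SE 0.05, adjusted p = 1.6e-06). Both were higher in each nlrc3 MO sample than in any control MO sample, by a ratio of means of 1.85 for atp6v1aa and 2.10 for atp6v1ab.

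Subunit B, which forms the ATPase hexamer with subunit A, came almost wholly from atp6v1ba, with 112, 114 and 119 FPKM in nlrc3 MO samples and 56.6, 54.9 and 56.6 FPKM in control MO samples (1.04, SE 0.03, adjusted p = 1.8e-07). Subunits C, E and G belong to the peripheral stalks that hold the sectors together. For subunit C, atp6v1c1b had 33.2, 34.2 and 30.7 FPKM in nlrc3 MO samples, against 15.02, 15.55 and 13.39 FPKM in control MO samples (1.15, SE 0.07, adjusted p = 5.5e-06). For subunit E, atp6v1e1b had 59.9, 56.8 and 62.9 FPKM in nlrc3 MO samples, against 28.5, 25.7 and 27.1 FPKM in control MO samples (1.14, SE 0.05, adjusted p = 1.5e-06). These stalk genes more than doubled on this scale, and atp6v1c1a (0.79) and atp6v1e1a (0.60) rose less. The stalk gene atp6v1g1, with 107, 114 and 120 FPKM in nlrc3 MO samples and 55.8, 55.3 and 58.8 FPKM in control MO samples, lay at the 2-fold limit with a log2 fold change of 1.002 (SE 0.05, adjusted p = 1.4e-06), and it was called in 3 of 6 fits that each left out 1 sample. Its log2 fold change was 0.96 without nlrc3 MO replicate 3, 0.99 without control MO replicate 1 and 0.985 without control MO replicate 2. The remaining V1 genes atp6v1d (0.75) and atp6v1f (0.81), of the central rotor, and atp6v1h (0.86), which regulates the enzyme, also rose.

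The V0 genes summed to 388, 396 and 397 FPKM in nlrc3 MO samples and 253, 254 and 253 FPKM in control MO samples, a ratio of 1.55, and 8 of 10 tested rose (20.2% of all genes tested). Most of the summed FPKM was atp6v0ca, which encodes the proteolipid subunit c of the proton-carrying ring and was the most abundant V-ATPase gene, with 269, 269 and 273 FPKM in nlrc3 MO samples and 170, 173 and 169 FPKM in control MO samples (0.67, SE 0.02, adjusted p = 1.9e-07). The ring gene atp6v0b (0.72), atp6v0d1 (0.64), whose subunit d joins the ring to the central stalk, the small subunit gene atp6v0e1 (0.88), and the subunit a genes atp6v0a1a (0.52), tcirg1a (0.63) and tcirg1b (0.64) rose, and atp6v0a2b rose by less (0.26). The ratio of summed V1 to summed V0 FPKM within a sample, which does not depend on library scaling, was 1.38, 1.36 and 1.39 in nlrc3 MO samples and 1.12, 1.08 and 1.11 in control MO samples. The 2 groups of 3 ratios did not overlap.

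When the FPKM of paralogs was added up, every one of the 13 subunits of both sectors was higher in all nlrc3 MO samples than in any control MO sample. Of all genes tested 22.8% lay wholly higher. Several subunits have 1 gene, and the sums hold genes already counted above, so this is no separate result. The ratio of means ran from 1.69 for subunit D to 2.07 for subunit E over the 8 V1 subunits, and from 1.39 for subunit a to 1.86 for subunit e over the 5 V0 subunits. Accessory proteins, which take part in assembly and in targeting of the pump, moved unequally. The gene atp6ap2, which encodes the (pro)renin receptor, had 46.7, 48.5 and 45.7 FPKM in nlrc3 MO samples, against 28.0, 21.8 and 22.7 FPKM in control MO samples (0.96, SE 0.09, adjusted p = 5.8e-05), while atp6ap1a rose by 0.70 and atp6ap1b by 0.28 on the log2 scale. Without control MO replicate 1, the highest of its group, atp6ap2 was past the 2-fold limit (1.07).

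**Figure D2:**
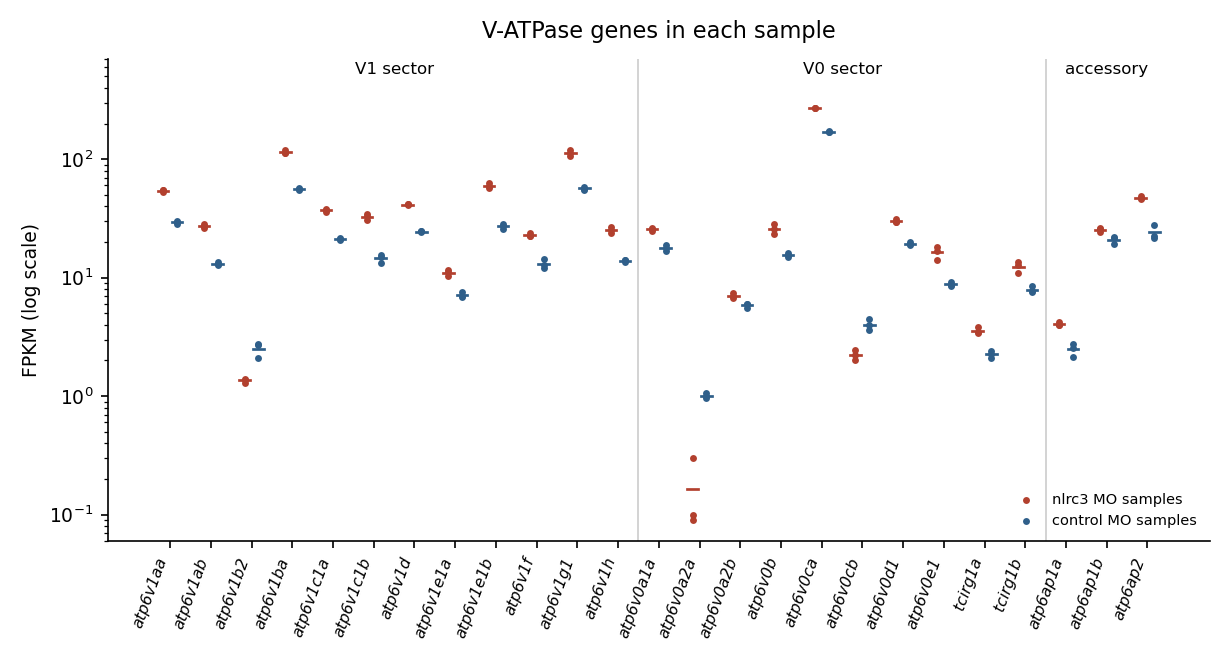
FPKM (log axis) of the 25 tested V-ATPase genes in each nlrc3 MO sample (red) and control MO sample (blue), ordered by sector, with the group mean as a short bar. All genes lie higher in nlrc3 MO samples except atp6v1b2, atp6v0a2a and atp6v0cb, and the 3 samples of a group lie close together for every gene above 5 FPKM.

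Paralogs of 1 subunit did not all move together at the low end. All 20 tested V-ATPase genes above 5 FPKM rose, whereas the 5 under 5 FPKM split into 2 that rose (tcirg1a and atp6ap1a) and 3 that fell. Of all genes tested, 24.0% rose between 5 and 20 FPKM and 31.9% above 20 FPKM. Under 5 FPKM 13.4% of all genes tested rose and 40.7% fell, so falls are common among low genes. The gene atp6v0a2a had 0.10, 0.30 and 0.09 FPKM in nlrc3 MO samples, against 1.06, 0.97 and 1.0 FPKM in control MO samples (-2.16, SE 0.36, adjusted p = 0.00128), and was the only V-ATPase gene called lower. At a pseudocount of 1 its value was -0.79 and it was not called. It passed the filter through control MO samples alone, so its direction and its separation follow in part from the filter. The minor ring gene atp6v0cb had 2.46, 2.0 and 2.22 FPKM in nlrc3 MO samples and 4.49, 3.59 and 3.97 FPKM in control MO samples (-0.82, SE 0.13, adjusted p = 0.00115). The minor subunit B gene atp6v1b2 had 1.39, 1.38 and 1.3 FPKM in nlrc3 MO samples and 2.70, 2.11 and 2.73 FPKM in control MO samples (-0.83, SE 0.15, adjusted p = 0.0022). Each of the 3 thus opposed the major paralog of its subunit.

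Ratios between paralogs within a sample are free of library scaling. The ratio of atp6v0ca to atp6v0cb was 109, 135 and 123 in nlrc3 MO samples and 37.9, 48.1 and 42.5 in control MO samples. The ratio of atp6v1ba to atp6v1b2 was 80.7, 82.5 and 91.5 in nlrc3 MO samples and 20.96, 26.04 and 20.73 in control MO samples. A smaller shift was seen for atp6v1e1b over atp6v1e1a, with a ratio of 5.41, 5.49 and 5.47 in nlrc3 MO samples and 4.04, 3.71 and 3.56 in control MO samples. No shift was seen between the tcirg1 paralogs, whose ratio (tcirg1b over tcirg1a) was 3.14, 3.33 and 3.99 in nlrc3 MO samples and overlapped the 3.39, 3.12 and 4.05 of control MO samples. The 4 V-ATPase genes not tested, atp6v0a1b, atp6v1c2, atp6ap1la and atp6ap1lb, had at most 0.62 FPKM in any sample. The gene atp6ap1la had 0.00, 0.17 and 0.00 FPKM in nlrc3 MO samples and 0.43, 0.62 and 0.56 FPKM in control MO samples.

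**Figure D3:**
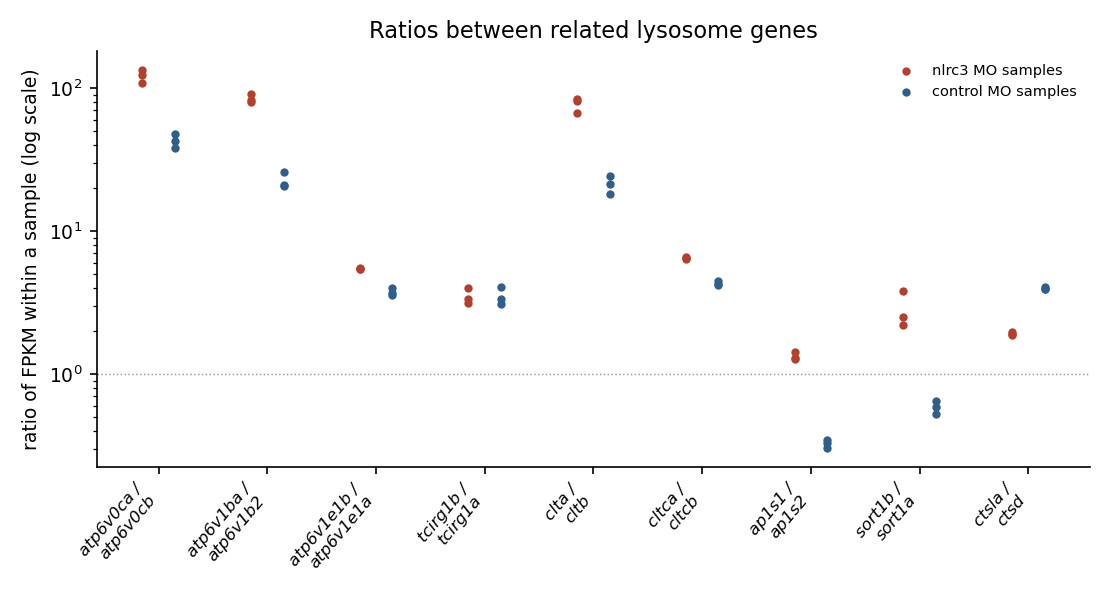
Ratio of the FPKM of one lysosome gene to that of a related one within each sample (log axis), for nlrc3 MO samples (red) and control MO samples (blue), with a dotted line at equal levels. The groups are apart in every pair drawn except tcirg1b over tcirg1a. The ratios of ap1s1 to ap1s2 and of sort1b to sort1a lie above 1 in nlrc3 MO samples and below 1 in control MO samples. Where 1 gene of a pair rose and the other fell, ratios that lie apart follow from the values of the genes and are no further result. The share of other gene pairs with ratios apart was not counted.

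The pump also acidifies other membranes and counts among other pathways. Of the members, 24 carried the KEGG entry Oxidative phosphorylation, of which 20 of 23 tested rose and 3 fell, and 32 carried the entry Phagosome, of which 22 of 29 rose and 6 fell, while 20.2% of all genes tested rose and 42.9% fell. Both counts hold V-ATPase genes already counted above, so they are no separate result. Ionocytes of the embryonic skin use the V-ATPase to secrete acid. Their 6 markers summed to 2.09 to 3.41 FPKM in nlrc3 MO samples and 1.51 to 1.88 FPKM in control MO samples. Only 2 of the 6 passed the filter, foxi3b (log2 fold change 0.61) and slc9a3 (0.40), and neither passed the test. The part of ionocytes in the V-ATPase values was not tested.

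Hydrolases divided in both directions, with more of them higher. Of 71 hydrolases and activators 59 were tested, 31 rose (52.5%), 13 fell (22.0%) and 15 did not pass the test, beside 20.2% and 42.9% of all genes tested. Called higher were 5 (8.47%) and lower 6 (10.2%), beside 4.89% and 20.4% of all genes tested. These calls include dnase2b, ctslb and 1 gene named zgc:66024, which passed the filter through 1 group alone. The median log2 fold change was 0.44, and it was 0.07 under TPM and 0.65 under median-of-ratios scaling. Their summed FPKM was only 1.11 times higher (1113, 1091 and 1095 FPKM in nlrc3 MO samples, 993, 998 and 984 FPKM in control MO samples), and as a percent of the FPKM of all genes it was lower, 0.161% in nlrc3 MO samples and 0.189% in control MO samples on average. By substrate, 11 of 18 tested proteases rose and 4 fell, 8 of 17 glycosidases rose and 3 fell, 4 of 8 sulfatases rose and 3 fell, and 3 of 8 lipid hydrolases rose and 3 fell. The shares of sulfatases and of lipid hydrolases that fell, 37.5% each, lay near the 42.9% of all genes tested. None of the 4 tested phosphatases and nucleases fell, and 3 rose.

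The proteases were dominated by ctsla, an L-type cathepsin and the most abundant hydrolase gene. It had 199, 197 and 190 FPKM in nlrc3 MO samples, against 313, 313 and 312 FPKM in control MO samples (-0.68, SE 0.02, adjusted p = 2.7e-07). The aspartic protease gene ctsd went the other way, with 106, 99.7 and 98.9 FPKM in nlrc3 MO samples and 77.0, 79.0 and 78.5 FPKM in control MO samples (0.37, SE 0.03, adjusted p = 4.7e-05), although its fold change was -0.004 under TPM. The ratio of ctsla to ctsd was therefore 1.88, 1.97 and 1.93 in nlrc3 MO samples and 4.07, 3.96 and 3.97 in control MO samples, a shift that no scaling can alter. With ctsla, ctslb and ctsk left aside, the cathepsin genes summed to 292, 283 and 284 FPKM in nlrc3 MO samples and 197, 195 and 195 FPKM in control MO samples, a set chosen after the values were seen that leaves out genes that fell. All protease genes together went the other way, with 600, 589 and 583 FPKM in nlrc3 MO samples and 624, 621 and 617 FPKM in control MO samples. A further cathepsin gene, ctso, fell by 0.84 on the log2 scale (limma adjusted p = 0.0011).

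The L-type ctslb and the collagen-degrading ctsk were lower, and a further L-type gene, ctsl, did not pass the filter. The gene ctsk encodes cathepsin K, known for the breakdown of collagen by osteoclasts, and had 2.13, 2.52 and 2.77 FPKM in nlrc3 MO samples and 20.1, 17.2 and 19.0 FPKM in control MO samples (-2.88, SE 0.11, adjusted p = 5.4e-07). The gene ctslb, a cathepsin of the zebrafish hatching gland, was listed at 0 in all 3 nlrc3 MO samples and had 7.54, 6.08 and 8.16 FPKM in control MO samples (adjusted p = 2.9e-07). It thus passed the filter through control MO samples alone, and its direction follows in part from the filter. A hatching enzyme gene he1, a marker of the same gland and no lysosome gene, had 0.00, 0.05 and 0.00 FPKM in nlrc3 MO samples. In control MO samples it had 20.23, 21.02 and 19.91 FPKM. It is the most abundant of the genes that share this symbol, and which copy it is was not determined. The transcription factor gene klf17, listed here with the markers of the gland, had 240 to 257 FPKM in nlrc3 MO samples and 265 to 276 FPKM in control MO samples. The level of klf17 was far above that of he1, and which of the sorted cells held klf17 is not known from bulk values. A further marker of this list, the member cd63, rose (log2 fold change 0.33). Of 3 tested markers of the gland 1 was called lower and 0 higher. The 4 markers found summed to 371 to 381 FPKM in nlrc3 MO samples and 386 to 398 FPKM in control MO samples. The part of the gland in the value of ctslb was not tested.

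Both tested copies of the cathepsin S gene ctss2 were higher, while ctss1 did not pass the filter. The copies lie in tandem, and near-identical copies may share reads, so their single values are uncertain. The copy ctss2.1 had 20.6, 17.7 and 19.3 FPKM in nlrc3 MO samples and 7.48, 7.77 and 6.94 FPKM in control MO samples (1.36, SE 0.08, adjusted p = 3.5e-06). The copy ctss2.2 had 4.95, 4.15 and 5.31 FPKM in nlrc3 MO samples and 0.98, 1.60 and 1.12 FPKM in control MO samples (1.899, SE 0.20, adjusted p = 9.9e-05). In mammals cathepsin S is a protease of macrophages and other antigen-presenting cells, and the macrophage marker mfap4 had 59.2, 60.6 and 54.7 FPKM in nlrc3 MO samples and 17.5, 15.9 and 18.1 FPKM in control MO samples. What that marker's rise contributes to the cathepsin S values was not tested. Legumain (lgmn), an asparaginyl endopeptidase, had 54.1, 50.6 and 52.3 FPKM in nlrc3 MO samples and 52.9, 52.9 and 51.8 FPKM in control MO samples, and did not pass the test (-0.01, SE 0.04, adjusted p = 0.902).

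Beyond the proteases, galns and dnase2b were among the hydrolase genes called higher. Galactosamine-6-sulfatase (galns), which acts on keratan and chondroitin sulfate, had 14.91, 17.05 and 17 FPKM in nlrc3 MO samples and 7.74, 7.83 and 7.81 FPKM in control MO samples (1.05, SE 0.07, adjusted p = 8.7e-06). The acid nuclease gene dnase2b had 0.59, 0.59 and 0.77 FPKM in nlrc3 MO samples and 0.09, 0.00 and 0.09 FPKM in control MO samples (2.28, SE 0.40, adjusted p = 0.00168). The groups did not overlap for galns (22.8% of all genes tested lay wholly higher). The gene dnase2b was under 1 FPKM throughout and passed the filter through nlrc3 MO samples alone. Its direction and its separation therefore follow in part from the filter and are no separate result. The value of dnase2b was set by the pseudocount, with 0.64 at a pseudocount of 1 and 3.82 at 0.01. The change of galns was under the 2-fold limit at a pseudocount of 1 (0.98) and under TPM (0.68).

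Called lower were 4 further hydrolase genes, of which naglu and ids act on heparan sulfate. The alpha-N-acetylglucosaminidase gene naglu had 1.51, 2.05 and 2.47 FPKM in nlrc3 MO samples and 6.16, 6.76 and 6.40 FPKM in control MO samples (-1.66, SE 0.17, adjusted p = 1.0e-04). The iduronate sulfatase gene ids had 1.60, 0.86 and 1.23 FPKM in nlrc3 MO samples and 2.73, 2.59 and 3.17 FPKM in control MO samples (-1.17, SE 0.23, adjusted p = 0.00269), a change that was -0.96 without nlrc3 MO replicate 2. Aspartylglucosaminidase (aga), which cleaves the bond between glycans and asparagine, had 2.28, 3.52 and 3.84 FPKM in nlrc3 MO samples and 7.01, 7.92 and 8.69 FPKM in control MO samples (-1.29, SE 0.19, adjusted p = 7.3e-04). The other was 1 of 2 genes named zgc:66024 (ENSDARG00000068840), annotated with the lipid hydrolases, with 0.06, 0.14 and 0.10 FPKM in nlrc3 MO samples and 0.83, 0.65 and 0.82 FPKM in control MO samples (-2.13, SE 0.32, adjusted p = 7.6e-04), a value that was -0.68 at a pseudocount of 1 and -2.88 at 0.01. All 4 groups of nlrc3 MO values lay wholly below those of control MO, as in 46.1% of all genes tested, and the call itself makes this likely. The gene zgc:66024 passed the filter through control MO samples alone, so its direction and its separation follow in part from the filter.

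Neither of the abundant activators was lower. Prosaposin (psap), the precursor of the saposins that present sphingolipids to their hydrolases, had 162, 164 and 168 FPKM in nlrc3 MO samples and 105, 102 and 102 FPKM in control MO samples (0.68, SE 0.03, adjusted p = 4.8e-07). The soluble cholesterol carrier gene npc2 had 43.7, 41.4 and 48.2 FPKM in nlrc3 MO samples and 41.4, 42.2 and 34.7 FPKM in control MO samples, with overlapping groups and no pass of the test (0.18, SE 0.09, adjusted p = 0.114). Its partner in the membrane, npc1, was slightly lower, with 17.04, 16.63 and 17.09 FPKM in nlrc3 MO samples and 19.1, 20.1 and 19.3 FPKM in control MO samples (-0.20, SE 0.05, adjusted p = 0.00611), a difference that was 0.007 under median-of-ratios scaling.

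**Figure D4:**
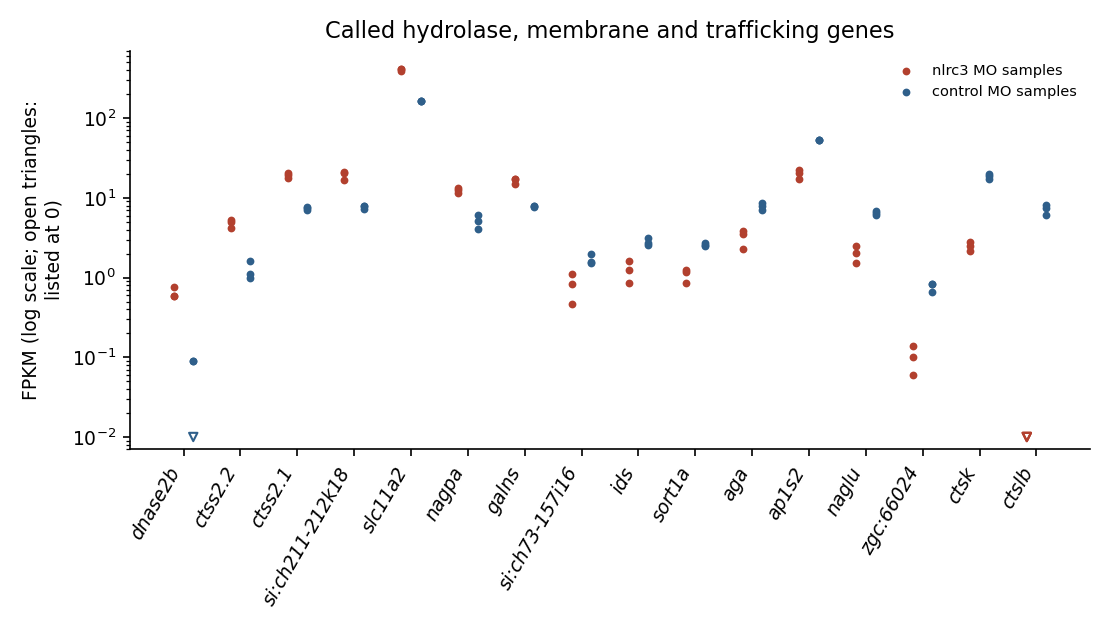
FPKM (log axis) in each nlrc3 MO sample (red) and control MO sample (blue) of 16 hydrolase, membrane and trafficking genes called higher (left) or lower (right), in order of log2 fold change, with values listed at 0 as open triangles on the lower edge. The groups do not overlap for any gene drawn, which the call itself makes likely (22.8% of all genes tested lay wholly higher and 46.1% wholly lower). The highest is slc11a2, with 395 to 414 FPKM in nlrc3 MO samples and about 164 FPKM in control MO samples.

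Membrane proteins showed the smallest median shift, 0.20, which was -0.15 under TPM. Of 24 genes 19 were tested, 9 rose, 5 fell and 5 did not pass the test, with 2 called higher and 0 lower, and no membrane gene that fell reached the 2-fold limit. The shares that rose and fell were 47.4% and 26.3%, beside 20.2% and 42.9% of all genes tested. Those called, 10.5% higher and 0% lower, stand beside 4.89% and 20.4%. The summed FPKM of 719, 687 and 719 in nlrc3 MO samples and 432, 438 and 433 in control MO samples was set largely by slc11a2, which encodes the divalent metal transporter that moves iron out of acid endosomes and is needed for haemoglobin production in zebrafish. It had 414, 395 and 412 FPKM in nlrc3 MO samples and 164, 164 and 164 FPKM in control MO samples (1.31, SE 0.02, adjusted p = 1.5e-08), and was the most abundant gene of all members in nlrc3 MO samples. The erythroid markers summed to 179855 to 182729 FPKM in nlrc3 MO samples and 62963 to 63410 FPKM in control MO samples, and their part in the value of slc11a2 was not tested. The gene si:ch211-212k18, grouped here with the structural membrane proteins, had 20.4, 16.9 and 21.4 FPKM in nlrc3 MO samples and 7.32, 7.96 and 7.84 FPKM in control MO samples (1.32, SE 0.09, adjusted p = 1.3e-05).

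The structural proteins of the lysosomal membrane moved in both directions. The tetraspanin gene cd63 had 131, 125 and 124 FPKM in nlrc3 MO samples and 101, 100.4 and 100.1 FPKM in control MO samples (0.33, SE 0.03, adjusted p = 4.4e-05), and laptm4a rose by 0.20 on the log2 scale (SE 0.05, adjusted p = 0.0124), but both turned negative under TPM (-0.05 and -0.18). The gene scarb2a, whose human counterpart LIMP-2 carries glucocerebrosidase to the lysosome, had 20.6, 18.1 and 20.9 FPKM in nlrc3 MO samples and 40.5, 39.8 and 38.2 FPKM in control MO samples (-0.99, SE 0.06, adjusted p = 7.2e-06), and it was called lower without nlrc3 MO replicate 1 (-1.02), nlrc3 MO replicate 3 (-1.03) or control MO replicate 3 (-1.01). Its ratio to cd63 within a sample was 0.157, 0.145 and 0.169 in nlrc3 MO samples and 0.402, 0.396 and 0.382 in control MO samples, so the shift between them stands under any scaling. The remaining membrane genes that fell, named after their values were seen, were lamp1b (-0.63), laptm4b (-0.41) and hgsnat (-0.28).

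More trafficking genes rose than fell, among them the major clathrin genes. Of 33 genes 31 were tested, 18 rose, 5 fell and 8 did not pass the test, with 1 called higher and 3 lower and a median log2 fold change of 0.26, which was -0.11 under TPM with 7 that rose and 12 that fell. The shares called, 3.23% higher and 9.68% lower, stand beside 4.89% and 20.4% of all genes tested, and the shares that rose and fell, 58.1% and 16.1%, beside 20.2% and 42.9%. The clathrin genes summed to 400, 390 and 411 FPKM in nlrc3 MO samples and 235, 237 and 238 FPKM in control MO samples. The heavy chain gene cltca had 210, 212 and 209 FPKM in nlrc3 MO samples and 121, 123 and 123 FPKM in control MO samples (0.78, SE 0.02, adjusted p = 1.2e-07). Its paralog cltcb rose by only 0.19 (SE 0.04, adjusted p = 0.00419), a value that was -0.18 under TPM. The light chain gene clta had 156, 144 and 167 FPKM in nlrc3 MO samples and 80.9, 83.6 and 82.2 FPKM in control MO samples (0.92, SE 0.05, adjusted p = 3.7e-06), while cltb, the minor light chain gene, had 1.86, 1.78 and 2.47 FPKM in nlrc3 MO samples and 4.43, 3.42 and 3.86 FPKM in control MO samples (-0.91, SE 0.17, adjusted p = 0.00199). The ratio of clta to cltb was 83.8, 80.8 and 67.6 in nlrc3 MO samples and 18.3, 24.4 and 21.3 in control MO samples.

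Among the subunits of AP-1, the adaptor between the Golgi and endosomes, the large subunit gene ap1b1 had 127, 124 and 128 FPKM in nlrc3 MO samples and 65.4, 64.4 and 65.3 FPKM in control MO samples (0.96, SE 0.03, adjusted p = 9.2e-08). The small subunit genes ap1s1 and ap1s2 exchanged rank, while a further one, ap1s3b, averaged 31.7 FPKM in nlrc3 MO samples and 27.8 FPKM in control MO samples (0.19). The gene ap1s2 had 17.3, 22.6 and 20.4 FPKM in nlrc3 MO samples and 53.3, 53.7 and 53.8 FPKM in control MO samples (-1.42, SE 0.09, adjusted p = 6.4e-06), while ap1s1 had 24.7, 29.3 and 25.9 FPKM in nlrc3 MO samples and 18.5, 16.4 and 17.9 FPKM in control MO samples (0.60, SE 0.08, adjusted p = 3.3e-04). The ratio of ap1s1 to ap1s2 was 1.43, 1.2995 and 1.27 in nlrc3 MO samples and 0.347, 0.305 and 0.332 in control MO samples. Of the AP-3 genes, 4 of 5 tested rose and 0 fell, and of the AP-4 genes 3 of 4 rose and 0 fell. Of all genes tested 20.2% rose and 42.9% fell. The median log2 fold change was 0.27 for AP-3 and 0.52 for AP-4, and under TPM it was -0.10 and 0.15.

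The sortilin paralogs, receptors that carry some hydrolases, also exchanged rank. The gene sort1a had 1.26, 1.16 and 0.85 FPKM in nlrc3 MO samples and 2.46, 2.68 and 2.59 FPKM in control MO samples (-1.19, SE 0.18, adjusted p = 7.5e-04), and sort1b had 3.16, 2.56 and 3.27 FPKM in nlrc3 MO samples and 1.3, 1.75 and 1.52 FPKM in control MO samples (0.93, SE 0.17, adjusted p = 0.00177). The only trafficking gene called higher was nagpa, the uncovering enzyme that completes the mannose 6-phosphate tag, with 11.4, 12.4 and 13.1 FPKM in nlrc3 MO samples and 6.10, 4.11 and 5.19 FPKM in control MO samples (1.26, SE 0.14, adjusted p = 1.5e-04). The gene si:ch73-157i16, annotated with the GGA adaptors, had 0.47, 1.12 and 0.84 FPKM in nlrc3 MO samples and 1.95, 1.57 and 1.51 FPKM in control MO samples (-1.03, SE 0.30, adjusted p = 0.0183). That call did not hold without nlrc3 MO replicate 1 (-0.72, adjusted p = 0.0256 in limma) or control MO replicate 1 (-0.92, adjusted p = 0.0675 in limma).

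Genes that govern the lysosome from outside the rule were counted from a list of 46, of which 39 were found and 36 tested. Of these 22 rose and 4 fell (20.2% and 42.9% of all genes tested), 5 were called higher and 0 lower (4.89% and 20.4% of all genes tested), and the median log2 fold change was 0.41, although TPM gave 0 called higher and 3 lower. Among the MiT/TFE factors, which drive lysosome genes in mammals, tfe3a had 9.50, 11.9 and 9.90 FPKM in nlrc3 MO samples and 6.74, 7.11 and 6.75 FPKM in control MO samples (0.59, SE 0.10, adjusted p = 0.00109), and tfe3b rose by 0.67 (SE 0.21, adjusted p = 0.024). The gene tfec, with 16.1, 13.9 and 15.7 FPKM in nlrc3 MO samples and 18.82, 19.97 and 20.89 FPKM in control MO samples, fell (-0.39, SE 0.07, adjusted p = 0.00232). The pigment cell factor gene mitfa was called higher at a low level (0.55, 1.06 and 0.73 FPKM in nlrc3 MO samples, 0.32, 0.30 and 0.36 FPKM in control MO samples), and tfeb and mitfb did not pass the filter. As mitfa passed the filter through nlrc3 MO samples alone, its direction follows in part from the filter. Of 5 tested pigment cell markers 3 were called lower and 0 higher, beside 20.4% and 4.89% of all genes tested. The call of mitfa did not hold without nlrc3 MO replicate 2 (0.79), control MO replicate 1 (0.996) or control MO replicate 2 (0.96). The family thus did not move as one.

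The other regulators called higher act in tethering of late endosomes or on the pump. The tethering gene vps18 had 15.98, 17.27 and 16.38 FPKM in nlrc3 MO samples and 7.84, 6.94 and 7.91 FPKM in control MO samples (1.12, SE 0.07, adjusted p = 7.5e-06). The V-ATPase assembly factor gene ccdc115 had 21.4, 23.6 and 26.8 FPKM in nlrc3 MO samples and 10.2, 10.5 and 11.2 FPKM in control MO samples (1.16, SE 0.09, adjusted p = 1.7e-05). The genes oxr1a (1.28) and oxr1b (1.02), whose proteins belong to a family that binds the V1 sector in yeast and mammals, were called higher as well, although oxr1b was under the limit without nlrc3 MO replicate 2 (0.90), control MO replicate 1 (0.9995) or control MO replicate 2 (0.83). With mitfa and oxr1b both lost in the same fits, 3 to 5 regulators were called higher when 1 sample was left out. In vps18, ccdc115, oxr1a and oxr1b all 3 nlrc3 MO values lay above all 3 control MO values, as in 22.8% of all genes tested. The call itself makes this likely.

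**Figure D5:**
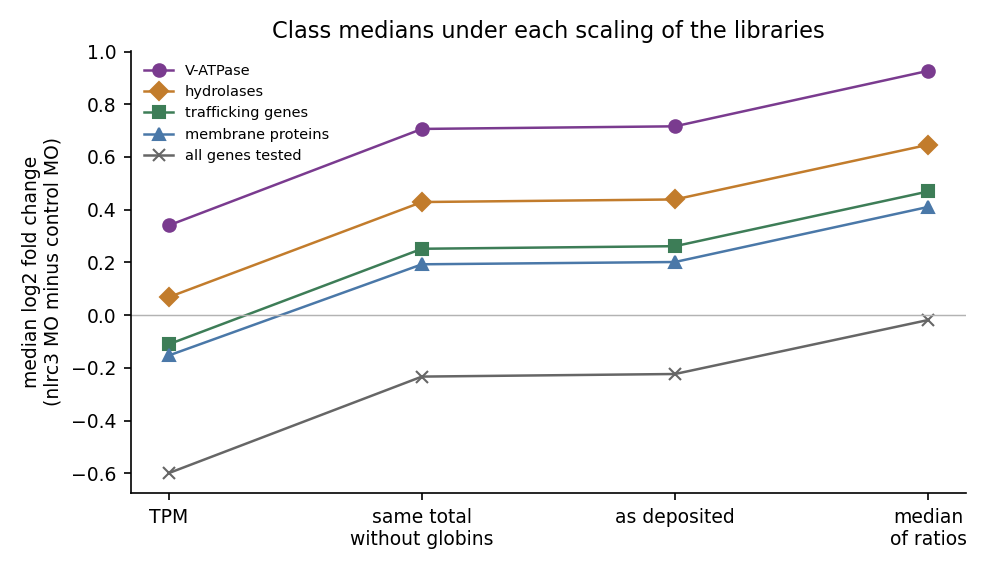
Median log2 fold change (nlrc3 MO minus control MO) of the tested genes of each class and of all genes tested, under 4 scalings of the libraries. The V-ATPase median runs from 0.34 under TPM to 0.93 under median-of-ratios scaling, and the membrane and trafficking medians lie below 0 under TPM. Each scaling divides a library by 1 number, so all genes move by nearly the same amount. The like order of the classes under the 4 scalings, and their place above all genes, follow from this and are no further result.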

How the data were processed

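RNA from 3 nlrc3 MO and 3 control MO samples was sequenced as single-end reads. The authors deposited FPKM per gene. Their methods name Cutadapt, HISAT2, Ensembl annotation, StringTie and ballgown, whereas the submitters' processing notes name CASAVA 1.8, Bowtie 0.12.2 and a mouse build; strand use was not given in the sources used here. Depth is unknown, since only 4.26% of 6034 low genes shared the most common step ratio. Columns were matched to samples by headings in the study's source data. The authors' fold changes, p-values and q-values were not used.

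Genes with at least 0.5 FPKM in 3 samples (15155) were tested with limma 3.58.1 (R 4.3.3; trend on) on log2(FPKM + 0.1), with no block, and Benjamini-Hochberg adjustment. A gene could pass this filter through 1 group alone, and its direction and separation then follow in part from the filter. An exact test of 3 against 3 samples cannot go below p = 0.1. The method was tested on simulated data. Alternatives covered pseudocount, filter, scaling, replicate block, trend, fold limits and leaving out each sample. Counts by adjusted p alone were added after the data were seen. Members and lists were chosen with earlier results of these data known. Named were all called members (up to 10 per class and direction), the 5 most abundant of each class, all tested V-ATPase genes, called regulators, MiT/TFE factors and nlrc3; others were picked after their values were seen. 1 called gene is not reported here. The table cuts symbols at the point, and ctss2.1 and ctss2.2 were told apart by description. For a marker whose cut symbol is shared, the most abundant gene of that symbol was taken. No coordinates or sequences were used.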

Additional observations from a re-analysis of the deposited data

How the results depend on the processing

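Scaling mattered most. Calls (higher, then lower) under TPM were 2 and 18 for all members, 2 and 9 for hydrolases, 0 and 2 for membrane proteins, 0 and 3 for the V-ATPase, 0 and 4 for trafficking genes and 0 and 3 for regulators. Under median-of-ratios scaling they were 31 and 7, 12 and 5, 4 and 0, 11 and 1, 4 and 1, and 7 and 0 in the same order. By adjusted p alone TPM gave 53 and 43 for members, 24 and 20 for hydrolases, 4 and 8 for membrane proteins and 7 and 12 for trafficking genes, and median-of-ratios scaling gave 10 and 2 for membrane proteins. Under a pseudocount of 1 the calls were 9 and 5 for members, 2 and 4 for hydrolases, 4 and 0 for the V-ATPase, 1 and 1 for trafficking genes and 3 and 0 for regulators. With no filter 1 membrane protein and 2 V-ATPase genes were called lower, and with a filter at 1 FPKM 0 V-ATPase genes were. With a fold limit of 1.5, calls were 54 and 18 for members, 23 higher for hydrolases, 5 and 2 for membrane proteins, 19 and 3 for the V-ATPase, 7 higher for trafficking genes and 14 and 3 for regulators. With no fold limit they were 80 and 26, 31 and 13, 9 and 5, 22 and 3, 18 and 5, and 22 and 4. Of the genes named by rule, those whose log2 fold change reversed under TPM were npc2 (-0.20), ctsd (-0.0040), cd63 (-0.046), laptm4a (-0.18), atp6v0a2b (-0.12), atp6ap1b (-0.092) and cltcb (-0.18). Those of lgmn (0.21) and npc1 (0.0069) reversed under median-of-ratios scaling. That of lgmn also reversed without nlrc3 MO replicate 2 (0.018, in a range of -0.029 to 0.018 over the fits that left out a sample). Members outside that rule reversed too, among them gba under TPM (-0.12) and cd164 under median-of-ratios scaling (0.15). Among the named log2 fold changes, 16 lost and 4 gained a call under TPM, 3 lost and 8 gained one under median-of-ratios scaling, and 12 lost one under a pseudocount of 1. Leaving out each sample gave 12 to 14 members called higher and 9 to 12 lower, 0 to 1 membrane protein called lower, 1 to 2 trafficking genes called higher and 2 to 4 lower, and 3 to 5 regulators called higher. Same-numbered samples did not deviate together over all genes tested (correlations 0.004, 0.04 and -0.003). This cannot exclude a pairing that touches few genes, and the labels state none. With the replicate block 13 members were called higher and 10 lower, and 76 rose and 25 fell. The causes of these shifts were not tested.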

Other observations

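Enzymes that break down heparan sulfate, a glycan of cell surfaces and matrix, fell more often than they rose in nlrc3 MO samples. The same holds for all genes tested, and the counts depended on the scaling. The group was formed from textbook substrates after the values were seen, so it is a description with no test. Of its 9 genes, all tested, 6 fell (66.7%) and 2 rose (22.2%), beside 42.9% and 20.2% of all genes tested. Called lower were 2 (22.2%; 20.4% of all genes tested), so the shares that rose and were called lower lay near those of all genes. Beside naglu and ids, arsg had 4.90 ± 0.20 FPKM in nlrc3 MO samples and 8.73 ± 0.49 FPKM in control MO samples (SD, n = 3 each), and gusb (log2 fold change -0.38), gnsa (-0.32) and hgsnat (-0.28) fell by less. The sulfamidase gene sgsh (0.46) and gnsb (0.67) rose. The median of the 9 was -0.32, beside 0.44 for all tested hydrolases and -0.22 for all genes tested.

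The 14 genes of sphingolipid breakdown, grouped in the same way, included 8 that rose and 0 that fell (20.2% and 42.9% of all genes tested). Their median log2 fold change was 0.49. These counts too depended on the scaling. Under TPM galcb (-0.35), arsa (-0.33) and gm2a (-0.20) fell (limma adjusted p = 0.034, 0.027 and 0.029). The acid sphingomyelinase gene smpd1 averaged 6.87 ± 0.37 FPKM in nlrc3 MO samples and 3.45 ± 0.45 FPKM in control MO samples (0.98), and hexa averaged 16.7 ± 1.4 FPKM in nlrc3 MO samples and 9.23 ± 0.59 FPKM in control MO samples (0.85, SD, n = 3 each). The glucocerebrosidase gene gba had 2.03 ± 0.12 FPKM in nlrc3 MO samples and 1.70 ± 0.09 FPKM in control MO samples. It did not pass the test (0.24, limma adjusted p = 0.158), but it rose under median-of-ratios scaling (0.44, limma adjusted p = 0.023). The medians were -0.70 for heparan sulfate and 0.12 for sphingolipids under TPM, and -0.12 and 0.70 under median-of-ratios scaling. Under the last of these gusb, gnsa and hgsnat no longer passed the test (limma adjusted p = 0.166, 0.262 and 0.564), which left 3 of the 9 heparan sulfate genes, naglu, ids and arsg, that fell.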
